A study of Homo sapiens with 22 samples.

Results

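This account concerns the RNA of MDA-MB-231 cells, an established human breast cancer line. The cells carried a knockdown of METTL3 and were then given METTL3 back in a form labelled METTL3-CD (shM3_CD, 2 libraries). They were set against cells of the line labelled B5 (2 libraries). The other 2 groups of the same table were used to place each value, namely knockdown cells given the METTL3-WT form (shM3_WT, 2 libraries) and knockdown cells with nothing added back (shM3, 2 libraries). All 4 groups were kept for 2 to 3 months, were grown in DMEM with serum, carry the entry WT under genotype, and belong to a protocol that describes infection with lentivirus. The labels do not say what B5 or CD stands for, which hairpin was used, or whether any line was a single clone. The question put to the data was which genes stayed away from the B5 level when the CD form was present at a high level. The genes described are those listed at 1 FPKM or more (fragments scaled to the length of the gene and the total of the library) in at least 2 of these 8 libraries, which kept 14638 of 60669 genes, and the comparison rests on 4 of the 22 libraries of the series. Just inside this limit stood AC104794.3, with a second highest value of 1.000265 FPKM, and just outside it BRSK2, with 0.999912 FPKM.

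METTL3 is the catalytic subunit of the complex that writes N6-methyladenosine (m6A) into RNA. It works as a pair with METTL14, which helps to bind the RNA, and WTAP, VIRMA, ZC3H13, CBLL1, RBM15 and RBM15B bring the pair to its targets. FTO and ALKBH5 remove the mark, and YTH-domain proteins among others read it and alter the splicing, translation and decay of the marked transcript. MDA-MB-231 is a mesenchymal line without oestrogen receptor that makes many inflammatory cytokines in culture.

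Differences below are means of log2(FPKM + 1), first group minus second, which understate the change of low genes. They come from limma, a linear model fitted to all 8 libraries together, and a gene is said to rise or fall where its Benjamini-Hochberg adjusted p over the 14638 genes was under 0.05. Whether the 2 libraries of a group are separate cultures is not stated, and a p-value here speaks of the spread between 2 such libraries, which can be technical only. Read totals are not given with FPKM, so the depth behind each value is unknown. Apart from PIDD1, a death-domain gene listed at 8234197 FPKM in B5 replicate 2 and at 8.49 to 13.5 FPKM in the other 7 libraries, the values summed to between 423171 (B5 replicate 2) and 451102 FPKM. The 2 B5 libraries also differed from each other more than the others did, with a median absolute log2 difference over genes of 0.165, against 0.122 for the shM3_CD pair.

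METTL3 (ENSG00000165819.12, GRCh38 chromosome 14, 21498133 to 21511375, minus strand) was listed at 277 and 270.5 FPKM in shM3_CD, 312 and 311 in shM3_WT, 4.39 and 4.805 in shM3, and 20.1 and 23.8 in B5. Both add-back groups thus stood far above B5, and shM3 below it, with no overlap. In shM3_CD the gene was 12.5-fold above B5 (log2 difference 3.59, SE 0.09, adjusted p = 9.16e-06), while the difference from shM3_WT did not pass (-0.19, SE 0.09, adjusted p = 0.185) except with median scaling of the libraries (-0.30, SE 0.09, adjusted p = 0.0460). The values count transcripts of either origin, since the table does not separate the added form from the cell's own gene.

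Of the 14638 genes, 2160 rose (14.8%) and 2224 fell (15.2%) in shM3_CD against B5, 4384 in all (29.9%). Without B5 replicate 2 the count was 3052, and without shM3_CD replicate 1 or 2 it was 2499 or 2383. Changes of at least 2-fold on this scale numbered 761 (5.20%), 306 higher (2.09%) and 455 lower (3.11%). The median difference over all genes was 0.00. Calls were rarer among low genes: over 4 equal bins of mean level, from low to high, the share was 18.9%, 28.04%, 33.4% and 39.5%. Against shM3_WT 2291 genes were higher (15.7%) and 1494 lower (10.2%) in shM3_CD, 25.9% in all. This balance turned with the scaling of the libraries, to 1654 higher and 1864 lower with TMM factors and 1502 higher and 2012 lower with median scaling. The median over all genes of shM3_CD minus shM3_WT was 0.08 as deposited, 0.01 with TMM factors and -0.01 with median scaling, and that of shM3_WT minus B5 was -0.07, 0.01 and 0.03. Leaving out any 1 library of shM3_CD or shM3_WT gave 1781 to 1955 genes. Against shM3 998 were higher (6.82%) and 672 lower (4.59%), 11.4% in all, or 500 to 569 genes without any 1 library of shM3_CD or shM3. With the same B5 libraries as its baseline, shM3 itself had 2620 genes higher (17.9%) and 2914 lower (19.9%), 37.8% in all.

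**Figure D1:**
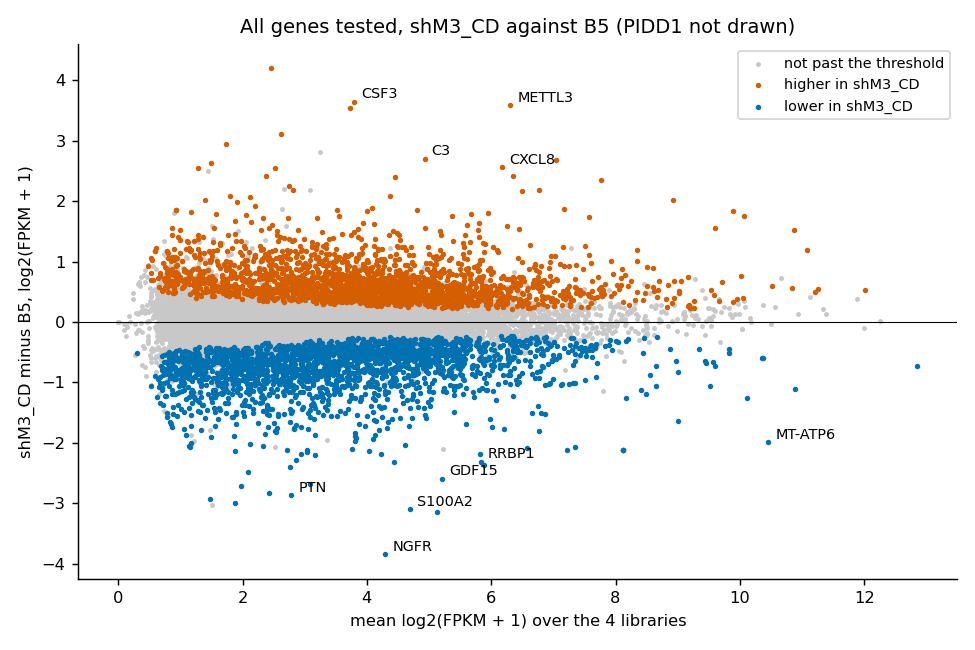
Each point is 1 of the genes tested, PIDD1 left out, with its mean log2(FPKM + 1) over the 4 libraries on the x axis and the difference shM3_CD minus B5 on the y axis. Orange points passed the threshold above B5 (2160 genes) and blue points below it (2224 genes), on both sides over the whole range of levels, and METTL3 (3.59) and NGFR (-3.85) mark the 2 directions.

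The m6A machinery around METTL3 held a few smaller changes, in shares not far from that of all genes. The writer complex list had 42.9% passing, METTL3 itself included, and the list of erasers and readers 33.3%, against 29.9% of all genes. Of 7 writer complex genes tested, METTL3 and RBM15B rose and METTL14 fell, and the other 4 did not pass. METTL14 was listed at 5.57 and 5.55 FPKM in shM3_CD, 7.097 and 4.91 in shM3_WT, 4.95 and 5.13 in shM3, and 8.31 and 10.1 in B5. Both shM3_CD values lay below both B5 values and within the range of the other knockdown-derived libraries (difference from B5 -0.63, SE 0.16, adjusted p = 0.0269). RBM15B, an adaptor that binds RNA for the complex, was at 14.97 and 15.1 FPKM in shM3_CD, against 11.9 and 10.9 in B5 (0.37, SE 0.09, adjusted p = 0.0197). Both calls were lost when B5 replicate 2 or either shM3_CD library was left out, with adjusted p between 0.0744 and 0.121. WTAP (23.7 and 26.5 FPKM in shM3_CD, against 26.8 and 27.02 in B5) and VIRMA (16.7 and 16.2 FPKM in shM3_CD, against 13.8 and 14.5 in B5) did not pass. Of 12 erasers and readers, 3 rose (YTHDF1, IGF2BP2 and ALKBH5) and FMR1 fell. These counts were 2 and 0 without shM3_CD replicate 1, and 1 and 0 without shM3_CD replicate 2. YTHDF1, a cytoplasmic m6A reader, was at 34.3 and 33.5 FPKM in shM3_CD, against 25.3 and 23.2 in B5 (0.47, SE 0.08, adjusted p = 0.00489). The eraser ALKBH5 was at 46.1 and 46.8 FPKM in shM3_CD, against 28.9 and 36.5 in B5 (0.50, SE 0.11, adjusted p = 0.0167), with adjusted p of 0.0682 and 0.076 when shM3_CD replicate 1 or 2 was left out. IGF2BP2 and FMR1 likewise lost their calls in some of these fits. Of 25 other RNA methyltransferases, 2 rose and 2 fell, which is below the share among all genes. Without 1 of the 4 libraries at a time 0 or 1 rose and 1 or 2 fell. PCIF1, which methylates the adenosine beside the cap, was at 24.1 and 24.1 FPKM in shM3_CD, against 33.7 and 34.3 in B5 (-0.48, SE 0.07, adjusted p = 0.0033).

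Many secreted inflammatory factors stood above B5. Of 27 cytokine and chemokine genes tested, 17 rose and 5 fell in shM3_CD, 81.5% in all against 29.9% of all genes. The median difference was 0.72, against 0.00 over all genes. CSF3, the growth factor for granulocytes, was listed at 48.9 and 47.8 FPKM in shM3_CD, 42.4 and 41.8 in shM3_WT, 2.54 and 1.798 in shM3, and 2.73 and 3.15 in B5. Both add-back groups lay above both other groups, and shM3 was below B5 without passing the test (-0.32, SE 0.13, adjusted p = 0.0845). In shM3_CD CSF3 was 16.5-fold above B5 (log2 difference 3.65, SE 0.13, adjusted p = 1.71e-05) and did not pass against shM3_WT (0.19, SE 0.13, adjusted p = 0.299). CXCL8, a chemokine for neutrophils, was listed at 169.96 and 179.6 FPKM in shM3_CD, 351 and 355 in shM3_WT, 19.6 and 19.3 in shM3, and 30.5 and 27.1 in B5. Its 4 groups did not overlap, in the order shM3_WT, shM3_CD, B5 and shM3, and shM3_CD differed from B5 by 2.56, SE 0.08, adjusted p = 1.07e-05 and from shM3_WT by -1.01, SE 0.08, adjusted p = 0.000686. CXCL3, a related chemokine, had the same order of the add-back forms, with 14.9 and 13.2 FPKM in shM3_CD, 33.7 and 28.2 in shM3_WT, 2.12 and 2.702 in shM3, and 2.21 and 2.41 in B5. Its difference from B5 was 2.18, SE 0.14, adjusted p = 0.000176, and its reads may be split with CXCL1 and CXCL2, which are close copies. IL1B, the gene of interleukin-1 beta, was at 11.2 and 10.8 FPKM in shM3_CD, 10.9 and 9.67 in shM3_WT, 0.942 and 0.889 in shM3, and 1.02 and 1.52 in B5. The add-back groups overlapped each other for IL1B and stood clear of the other groups (difference from B5 2.41, SE 0.14, adjusted p = 0.000152). The 27 differences ran from -1.51 to 3.65, and the list median was 0.72 in shM3_CD, 0.42 in shM3_WT and -0.24 in shM3, each against the same 2 B5 libraries.

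The promoters of the chemokines CXCL8 and CXCL3 are shown because they hold the letters GGNNTTNCC, a core of the sites of NF-kB, the transcription factor family that drives many inflammatory genes. Each window runs from 250 bases before to 50 bases after the start in the RefSeq table for GRCh38.p14, written 5′ to 3′ on the strand of the gene, with the matched letters in capitals. CXCL8 lies at chr4:73740319-73740618 on the plus strand with 1 match, and CXCL3 at chr4:74038640-74038939 on the minus strand with 2 matches.
CXCL8: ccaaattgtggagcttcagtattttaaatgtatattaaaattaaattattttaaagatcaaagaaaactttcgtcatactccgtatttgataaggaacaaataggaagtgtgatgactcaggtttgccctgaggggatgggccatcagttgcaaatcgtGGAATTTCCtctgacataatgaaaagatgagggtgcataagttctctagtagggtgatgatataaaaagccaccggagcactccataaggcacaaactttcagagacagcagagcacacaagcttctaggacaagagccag
CXCL3: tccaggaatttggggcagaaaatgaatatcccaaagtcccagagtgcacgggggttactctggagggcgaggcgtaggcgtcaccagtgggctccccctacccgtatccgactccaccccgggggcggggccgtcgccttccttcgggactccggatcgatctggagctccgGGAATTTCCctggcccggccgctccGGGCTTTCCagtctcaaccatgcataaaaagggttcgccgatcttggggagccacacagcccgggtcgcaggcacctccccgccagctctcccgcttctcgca
Searched on both strands, the letters were found in 7 of the 13 cytokine genes that rose and have a window (53.8%), in 11 of all 22 list members with a window (50.00%) and in 20.1% of 27305 gene symbols in the table. A match describes the letters in the window and is no evidence of binding, and a gene with several windows counts as holding the letters where any window does. Windows were found for 144 of the 198 genes named by rule, and CSF3, C3 and SAA1 were not among them.

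Genes around these factors moved with them in part. PTGS2, the inducible cyclooxygenase of prostaglandin synthesis, was listed at 13.03 and 12.8 FPKM in shM3_CD, 6.76 and 7.04 in shM3_WT, 4.23 and 3.95 in shM3, and 1.203 and 1.55 in B5, highest in shM3_CD with no overlap (2.55, SE 0.11, adjusted p = 5.31e-05 against B5). PTGES, which converts its product to prostaglandin E2, was at 187 and 190.4 FPKM in shM3_CD, 67.3 and 67.2 in shM3_WT, 74.5 and 73.7 in shM3, and 94.2 and 82.4 in B5. For PTGES shM3_CD stood above the 3 other groups (1.09, SE 0.08, adjusted p = 0.000271 against B5). Of 23 genes of the NF-kB subunits and their feedback, 9 rose and 1 fell (median 0.34), 43.5% in all against 29.9% of all genes. TNIP1, an inhibitor of the pathway, was at 286 and 269 FPKM in shM3_CD, against 129 and 128 in B5 (1.11, SE 0.07, adjusted p = 0.000201), and BIRC3, a ubiquitin ligase downstream of TNF receptors, at 15.9 and 15.8 FPKM in shM3_CD, against 7.33 and 6.6999 in B5 (1.07, SE 0.15, adjusted p = 0.00266). MAP3K14, the kinase of the non-canonical branch, was the member that fell, with 4.105 and 4.55 FPKM in shM3_CD, against 13.03 and 12.4 in B5 (-1.37, SE 0.11, adjusted p = 0.000412). Among 17 complement and acute phase genes 6 rose and 5 fell, 64.7% in all against 29.9% of all genes. Both counts were lower without any 1 library of shM3_CD or B5. C3, the central complement component, was listed at 77.4 and 75.7 FPKM in shM3_CD, 45.5 and 41.5 in shM3_WT, 3.05 and 3.59 in shM3, and 11.3 and 10.6 in B5. Its groups did not overlap, and shM3_CD was 7.002-fold above B5 (2.701, SE 0.10, adjusted p = 1.91e-05). LCN2, which binds bacterial iron carriers, was at 42.9 and 45.8 FPKM in shM3_CD, against 3.47 and 2.41 in B5 (3.54, SE 0.24, adjusted p = 0.000203). SAA1, an acute phase apolipoprotein, was at 462 and 526 FPKM in shM3_CD, against 99.2 and 92.9 in B5 (2.35, SE 0.12, adjusted p = 8.87e-05), and some of its reads may belong to the near copy SAA2. BCL2A1, an anti-apoptotic BCL2 relative, was listed at 2.14 and 3.17 FPKM in shM3_CD and 7.295 and 8.69 in shM3_WT, and at 0 in both B5 libraries.

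**Figure D2:**
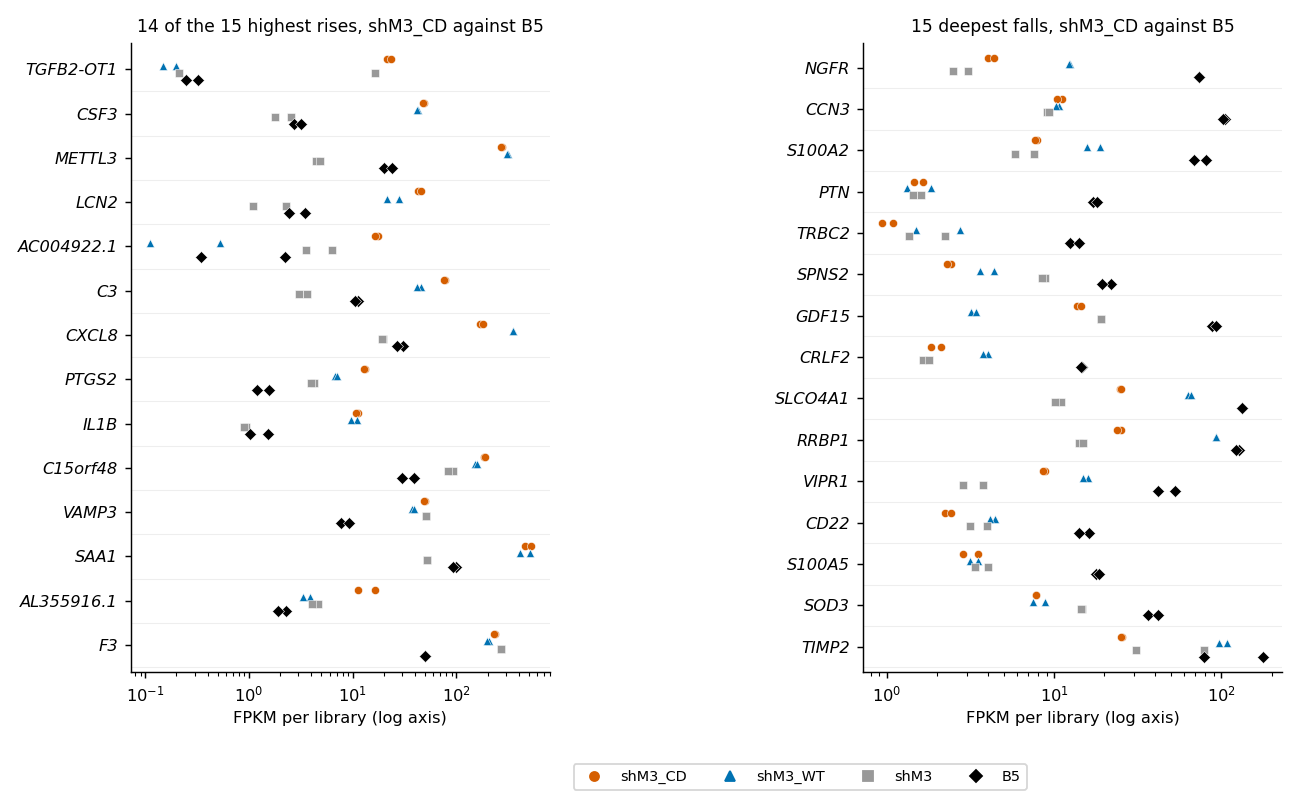
FPKM of every library on a log axis for 14 of the 15 genes with the highest rises (left) and the 15 with the deepest falls (right) in shM3_CD against B5, with 1 point per library. F3 and VAMP3 show shM3_CD, shM3_WT and shM3 close together above B5, while CSF3, LCN2, C3, IL1B and SAA1 show the 2 add-back groups above both shM3 and B5.

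Other rises were found in all 3 knockdown-derived groups. F3, tissue factor, which starts coagulation, was at 234 and 231 FPKM in shM3_CD, 207 and 197 in shM3_WT, 271 and 269.9 in shM3, and 50.05 and 50.4 in B5 (2.19, SE 0.06, adjusted p = 1.07e-05 against B5, 95% interval against shM3 -0.37 to -0.07). VAMP3, a vesicle fusion protein, was at 50.03 and 48.5 FPKM in shM3_CD, 37.3 and 38.7 in shM3_WT, 51.4 and 50.5 in shM3, and 7.79 and 9.31 in B5 (2.400, SE 0.09, adjusted p = 3.04e-05 against B5, 95% interval against shM3 -0.27 to 0.17). For both genes the shM3_CD values were several times those of B5 and close to those of shM3. C15orf48 stood between, with 185 and 188 FPKM in shM3_CD, 150.2 and 157 in shM3_WT, 92.05 and 82.5 in shM3, and 39.2 and 29.8 in B5. It was higher in shM3_CD than in shM3 (1.09, SE 0.13, adjusted p = 0.00365) as well as than in B5 (2.41, SE 0.13, adjusted p = 9.84e-05). TGFB2-OT1, a transcript annotated within the TGFB2 locus, had the largest fitted rise but unequal replicates, with 21.6 and 23.7 FPKM in shM3_CD, 0.199 and 0.147 in shM3_WT, 0.212 and 16.5 in shM3, and 0.321 and 0.246 in B5, and its call was lost when either library of shM3_CD or of B5 was left out (adjusted p 0.0771 to 0.0865).

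Several of the deepest falls left shM3_CD near the level of shM3. NGFR, the low-affinity neurotrophin receptor (ENSG00000064300.9, chromosome 17, 49495293 to 49515017, plus strand), was listed at 4.01 and 4.35 FPKM in shM3_CD, 12.5 and 12.3 in shM3_WT, 2.48 and 3.04 in shM3, and 73.6 and 73.6 in B5. B5 stood far above every other library, and the fall in shM3_CD was 17.6-fold (-3.85, SE 0.10, adjusted p = 9.16e-06). NGFR was lower in shM3_CD than in shM3_WT (-1.37, SE 0.10, adjusted p = 0.00058) and slightly higher than in shM3 (0.47, SE 0.10, adjusted p = 0.0304). CCN3, a matricellular protein, was listed at 11.1 and 10.4 FPKM in shM3_CD, 10.7 and 10.2 in shM3_WT, 9.04 and 9.27 in shM3, and 105 and 102 in B5. The 6 knockdown-derived libraries lay within a narrow band, 9.63-fold below B5 for shM3_CD (-3.15, SE 0.08, adjusted p = 9.16e-06), with a 95% interval of 0.02 to 0.40 for shM3_CD minus shM3 and of -0.15 to 0.22 for shM3_CD minus shM3_WT. PTN, the heparin-binding growth factor pleiotrophin, gave the same picture, with 1.64 and 1.45 FPKM in shM3_CD, 1.31 and 1.83 in shM3_WT, 1.42 and 1.61 in shM3, and 17.04 and 18.1 in B5 (-2.87, SE 0.14, adjusted p = 6.87e-05 against B5, 95% interval against shM3 -0.31 to 0.34). S100A2, a calcium-binding protein of epithelial cells, was at 7.91 and 7.67 FPKM in shM3_CD, 15.8 and 18.7 in shM3_WT, 5.82 and 7.53 in shM3, and 80.9 and 68.7 in B5. Its shM3_CD values were just above those of shM3 and below those of shM3_WT (-3.103, SE 0.14, adjusted p = 6.01e-05 against B5, -1.05, SE 0.14, adjusted p = 0.0034 against shM3_WT). RRBP1, a ribosome receptor of the endoplasmic reticulum, differed widely between the 2 add-back forms, with 25.2 and 23.7 FPKM in shM3_CD, 93.1 and 93.1 in shM3_WT, 14.1 and 14.9 in shM3, and 129 and 123 in B5. It fell against B5 in shM3_CD (-2.32, SE 0.07, adjusted p = 1.07e-05) and lay below shM3_WT (-1.89, SE 0.07, adjusted p = 6.21e-05). SLCO4A1, an organic anion transporter, was ordered in the same way, with 24.9 and 25.04 FPKM in shM3_CD, 62.9 and 65.5 in shM3_WT, 11.01 and 10.1 in shM3, and 134 and 133 in B5 (-2.37, SE 0.07, adjusted p = 1.07e-05 against B5). GDF15, a stress-induced secreted factor, was lowest in shM3_WT, with 13.7 and 14.4 FPKM in shM3_CD, 3.18 and 3.397 in shM3_WT, 18.96 and 19.2 in shM3, and 87.8 and 92.5 in B5 (-2.595, SE 0.08, adjusted p = 1.07e-05 for shM3_CD against B5). SPNS2, which exports sphingosine 1-phosphate, was lowest in shM3_CD, with 2.42 and 2.29 FPKM in shM3_CD, 4.37 and 3.62 in shM3_WT, 8.76 and 8.51 in shM3, and 22.02 and 19.3 in B5 (-2.69, SE 0.12, adjusted p = 5.31e-05 against B5, -0.57, SE 0.12, adjusted p = 0.0139 against shM3_WT).

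Markers of cells that a culture of this line should not hold were lower than in B5 in shM3_CD, shM3_WT and shM3 alike. Of 15 haematopoietic markers 10 were under 1 FPKM in all 4 libraries, with TYROBP, MS4A1 and CD3E among those at 0, and the list summed to 51.9 to 62.3 FPKM in shM3_CD and 95.3 to 107 FPKM in B5. Of 13 fibroblast and endothelial markers 6 were under 1 FPKM, and the sums were 13.9 to 14.97 FPKM in shM3_CD and 25.4 to 28.5 FPKM in B5. The haematopoietic median against B5 over the 5 members tested was -0.98 in shM3_CD, -0.94 in shM3_WT and -1.12 in shM3. Over the 7 fibroblast and endothelial members tested it was -0.82, -1.05 and -0.68 in the same order. In shM3_CD the haematopoietic median was -0.56 without B5 replicate 1, and the fibroblast and endothelial one -0.71 without B5 replicate 2. Luminal epithelial markers summed to 887 FPKM in both shM3_CD libraries and to between 847 and 1032 FPKM in B5, with 4 of 16 under 1 FPKM. VIM, which marks the mesenchymal state of the line, was at 661 and 549 FPKM in shM3_CD, against 1025 and 971 in B5, and CD44 at 60.98 and 44.6 FPKM in shM3_CD, against 125 and 121 in B5, both present in every library. Their part in the falls of leukocyte-type genes, such as CD22 (2.21 and 2.398 FPKM in shM3_CD, against 16.2 and 14.04 in B5), the T cell receptor constant segment TRBC2 (0.933 and 1.09 FPKM in shM3_CD, against 12.5 and 14.1 in B5) and the MHC class II genes, was not tested. In bulk RNA, fewer cells of a type and less RNA per cell cannot be told apart.

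Antigen presentation genes lay below B5. Of the class II list 64.3% passed and of the class I list 65%, against 29.9% of all genes. Of 14 genes of MHC class II presentation 9 fell and none rose, with a list median of -0.69 in shM3_CD, -0.31 in shM3_WT and -1.93 in shM3 against B5. HLA-DRA, the alpha chain of HLA-DR, was listed at 110.4 and 101 FPKM in shM3_CD, 148 and 152 in shM3_WT, 16.97 and 18.1 in shM3, and 225 and 207 in B5. The 4 groups did not overlap and shM3_CD stood between shM3 and shM3_WT, below B5 by -1.02, SE 0.08, adjusted p = 0.000357 and above shM3 by 2.53, SE 0.08, adjusted p = 2.07e-05. CD74, the invariant chain that guides class II molecules, had the same order, with 227 and 228 FPKM in shM3_CD, 302 and 297 in shM3_WT, 119 and 122 in shM3, and 529 and 473 in B5 (-1.13, SE 0.07, adjusted p = 0.000201 against B5). IFI30, a thiol reductase that prepares antigens, was at 35.4 and 33.3 FPKM in shM3_CD, 47.99 and 55.3 in shM3_WT, 34.03 and 30.6 in shM3, and 122 and 111 in B5, as low in shM3_CD as in shM3 (95% interval of that difference -0.15 to 0.32) and 3.39-fold below B5 (-1.73, SE 0.10, adjusted p = 0.000152). Among 20 genes of MHC class I and peptide loading 13 fell and none rose (median -0.52), a count of 8 or 7 without shM3_CD replicate 1 or 2. HLA-B was at 544 and 563 FPKM in shM3_CD, against 914 and 849 in B5 (-0.67, SE 0.08, adjusted p = 0.00132), and TAPBP, which loads peptides, at 56.3 and 59.1 FPKM in shM3_CD, against 97.6 and 116 in B5 (-0.87, SE 0.10, adjusted p = 0.00122). HLA genes are highly alike, so the split of reads among them is uncertain.

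Interferon-stimulated genes were lower in shM3_CD than in B5 and higher than in shM3_WT. The share passing against B5 was 69.0%, while 29.9% of all genes passed. Of 42 tested, 29 fell and none rose against B5 (median -0.64), or 18 without shM3_CD replicate 2. Set directly against shM3_WT, 29 of the 42 were higher in shM3_CD and none lower (median 0.77), while 15.7% of all genes were higher. The list medians against B5 were -0.64 in shM3_CD, -1.598 in shM3_WT and -0.21 in shM3. RSAD2, which encodes the antiviral enzyme viperin, was listed at 3.52 and 2.34 FPKM in shM3_CD, 0.591 and 0.723 in shM3_WT, 5.24 and 4.91 in shM3, and 15.4 and 17.3 in B5. B5 was highest and shM3_WT lowest, with shM3_CD 5.59-fold below B5 (-2.16, SE 0.16, adjusted p = 0.000285) and above shM3_WT (1.23, SE 0.16, adjusted p = 0.00291). MX1, a dynamin-like antiviral GTPase, was at 9.92 and 10.98 FPKM in shM3_CD, 5.84 and 5.96 in shM3_WT, 45.1 and 43.6 in shM3, and 21.5 and 24.4 in B5. Here shM3 was the highest group, and shM3_CD was below B5 (-1.06, SE 0.10, adjusted p = 0.000539) and below shM3 (-1.99, SE 0.10, adjusted p = 0.000129). IFIT3, which binds viral RNA complexes, was at 97.7 and 103 FPKM in shM3_CD, 27.2 and 26.8 in shM3_WT, 128 and 132 in shM3, and 159.8 and 154 in B5 (-0.64, SE 0.07, adjusted p = 0.000936 for shM3_CD against B5). IFIH1, the gene of the double-stranded RNA sensor MDA5, was at 9.51 and 8.196 FPKM in shM3_CD, 2.57 and 3.01 in shM3_WT, 13.6 and 13.8 in shM3, and 28.7 and 38.04 in B5 (-1.79, SE 0.15, adjusted p = 0.000425 against B5). These genes shared the order B5 highest and shM3_WT lowest, except MX1, whose highest group was shM3. Among all 22 RNA sensors and transducers, 5 fell and 2 rose, 31.8% in all, near the 29.9% of all genes. Fewer fell without either shM3_CD library. IKBKE, a kinase that activates interferon factors, was one that rose, with 25.2 and 26.1 FPKM in shM3_CD, against 11.1 and 13.1 in B5 (1.03, SE 0.10, adjusted p = 0.000696).

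The window of RSAD2 is shown for the core of the interferon-stimulated response element, taken as GAAA followed after any 2 bases by GAAA, which stands in it once on the opposite strand. It covers chr2:6877527-6877826 on the plus strand in GRCh38.p14, and the match begins at -145 from the start.
RSAD2: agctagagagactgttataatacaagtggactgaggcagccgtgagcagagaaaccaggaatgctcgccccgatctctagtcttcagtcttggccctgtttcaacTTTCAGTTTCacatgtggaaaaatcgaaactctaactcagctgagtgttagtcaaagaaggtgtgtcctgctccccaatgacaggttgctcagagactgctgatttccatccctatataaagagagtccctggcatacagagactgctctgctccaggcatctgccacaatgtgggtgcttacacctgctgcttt
This core was found on either strand in 16 of the 22 interferon-stimulated genes that fell and have a window (72.7%), in 26 of all 35 list members with one (74.3%) and in 4.38% of all symbols. Among class I genes that fell, 8 of 11 held it (72.7%).

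Cell cycle genes lay below B5 and above shM3. Against B5 62.2% of the S phase list and 58.1% of the G2 and mitosis list passed. For recombination repair and the Fanconi pathway it was 42.9%, and for all genes 29.9%. Over all genes 6.82% were higher than in shM3 and 10.2% lower than in shM3_WT. Of 45 S phase genes 28 fell and none rose against B5, and 22 were higher and 1 lower than in shM3. Of 43 genes of G2 and mitosis 24 fell and 1 rose against B5, and 34 were higher and none lower than in shM3. Against shM3_WT, 38 of the S phase genes and 41 of the G2 and mitosis genes were lower in shM3_CD and none higher. With 1 library of the 2 groups compared left out, the S phase counts were 18 to 23 against shM3_WT and 7 to 10 against shM3. The S phase medians against B5 were -0.48 in shM3_CD, 0.10 in shM3_WT and -0.98 in shM3, and those of G2 and mitosis -0.44 in shM3_CD, 0.55 in shM3_WT and -1.14 in shM3. TYMS, the thymidylate synthase that supplies DNA replication, was listed at 41.1 and 43.2 FPKM in shM3_CD, 97.98 and 99.4 in shM3_WT, 20.4 and 21.8 in shM3, and 111 and 98.1 in B5. The shM3_CD values lay between shM3 and the other groups, 2.48-fold below B5 (-1.29, SE 0.08, adjusted p = 0.000201), above shM3 (0.97, SE 0.08, adjusted p = 0.00121) and below shM3_WT (-1.21, SE 0.08, adjusted p = 0.000501). E2F1, which switches on S phase genes, followed the same order, with 15.7 and 17.5 FPKM in shM3_CD, 40.2 and 37.9 in shM3_WT, 9.12 and 9.98 in shM3, and 42.8 and 37.7 in B5 (-1.23, SE 0.10, adjusted p = 0.000412 against B5). UHRF1, which copies DNA methylation after replication, stayed near shM3, with 16.3 and 17.4 FPKM in shM3_CD, 42.01 and 42.3 in shM3_WT, 12.8 and 12.8 in shM3, and 47.5 and 58.7 in B5. It was 3.15-fold below B5 (-1.59, SE 0.11, adjusted p = 0.000215), and its difference from shM3 did not pass (0.37, SE 0.11, adjusted p = 0.0744). TOP2A, which untangles replicated DNA, was at 61.5 and 64.1 FPKM in shM3_CD, 111 and 113 in shM3_WT, 29.7 and 30.4 in shM3, and 109 and 127 in B5 (-0.89, SE 0.09, adjusted p = 0.000717 against B5), and DLGAP5, a spindle protein, at 27.5 and 27.6 FPKM in shM3_CD, 49.5 and 49.7 in shM3_WT, 14.8 and 15.1 in shM3, and 47.2 and 45.9 in B5 (-0.74, SE 0.07, adjusted p = 0.000622). Both lay between shM3 and B5 with no overlap. Of 28 genes of recombination repair and the Fanconi pathway 12 fell and none rose, and the count was 6 without either shM3_CD library. RAD50, of the complex that senses broken DNA ends, was at 4.61 and 3.76 FPKM in shM3_CD, 4.31 and 3.298 in shM3_WT, 5.68 and 5.89 in shM3, and 9.05 and 7.93 in B5 (-0.87, SE 0.15, adjusted p = 0.00537), lower than B5 in all 3 other groups.

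The promoters of TYMS and DLGAP5 are shown for the letters of 2 cell cycle elements, TTTNNCGC, a core of E2F sites, and TTTGAA, the cell cycle homology region. TYMS covers chr18:657403-657702 on the plus strand, with 1 match of the E2F letters at -39, and DLGAP5 covers chr14:55191536-55191835 on the minus strand, with 3 matches of the other element.
TYMS: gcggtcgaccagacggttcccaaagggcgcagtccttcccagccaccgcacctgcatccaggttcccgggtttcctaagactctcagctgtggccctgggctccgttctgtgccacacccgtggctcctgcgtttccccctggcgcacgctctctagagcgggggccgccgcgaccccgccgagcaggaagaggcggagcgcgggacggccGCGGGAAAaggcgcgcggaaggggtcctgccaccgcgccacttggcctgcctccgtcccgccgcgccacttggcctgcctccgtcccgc
DLGAP5: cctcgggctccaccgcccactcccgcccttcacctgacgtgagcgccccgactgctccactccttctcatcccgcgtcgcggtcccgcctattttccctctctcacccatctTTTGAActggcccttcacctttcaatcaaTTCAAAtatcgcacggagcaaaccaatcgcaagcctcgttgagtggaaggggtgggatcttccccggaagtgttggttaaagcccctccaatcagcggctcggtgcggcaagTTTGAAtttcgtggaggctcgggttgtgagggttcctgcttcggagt
The E2F letters were found in 15 of the 24 S phase genes that fell and have a window (62.5%), in 23 of all 39 with one (58.97%) and in 8.23% of all symbols. The cell cycle homology letters were found in 14 of the 21 G2 and mitosis genes that fell (66.7%), in 24 of all 35 (68.6%) and in 18.2% of all symbols, both strands being searched.

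**Figure D3:**
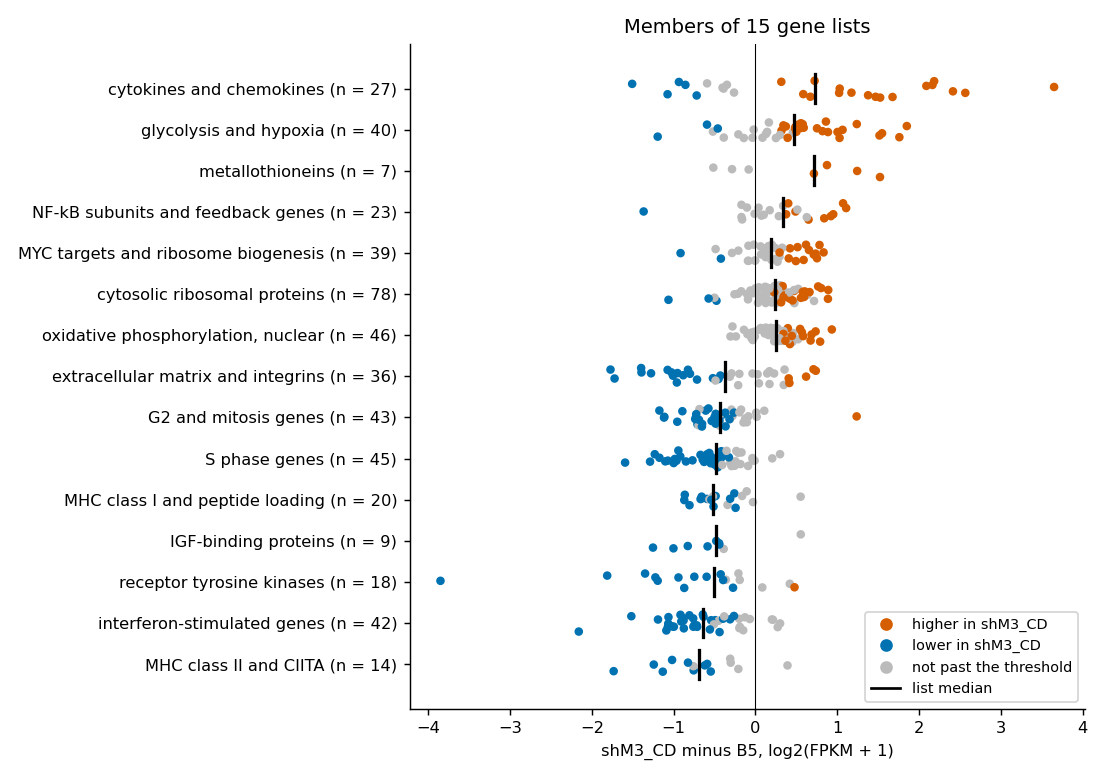
Difference shM3_CD minus B5 on the x axis for each tested member of 15 gene lists, with orange and blue points for members past the threshold, grey points for the others, and a black bar at the list median. Cytokines and chemokines (0.72) and glycolysis and hypoxia (0.47) lie to the right, and MHC class II (-0.69) and interferon-stimulated genes (-0.64) to the left.

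Glycolysis and hypoxia genes rose in shM3_CD. Of 40 tested, 24 rose and 3 fell against B5, 67.5% in all against 29.9% of all genes. Against shM3 13 were higher and 1 lower, and against shM3_WT 19 were higher and 1 lower. With TMM factors or median scaling 15 were higher and 1 lower than in shM3_WT. Over all genes 6.82% were higher than in shM3 and 15.7% higher than in shM3_WT. With 1 library of the 2 groups compared left out, 4 to 7 were higher than in shM3 and 11 to 15 higher than in shM3_WT. The medians against B5 were 0.47 in shM3_CD, 0.12 in shM3_WT and 0.27 in shM3. PFKFB4, which sets the level of fructose 2,6-bisphosphate, an activator of glycolysis, was listed at 20.2 and 21.1 FPKM in shM3_CD, 6.64 and 6.69 in shM3_WT, 13.1 and 13.4 in shM3, and 4.76 and 5.26 in B5. Its groups did not overlap, with shM3_CD highest, 4.12-fold above B5 (1.85, SE 0.09, adjusted p = 6.87e-05). BNIP3, a mitophagy receptor induced by low oxygen, was at 146 and 149 FPKM in shM3_CD, 92.9 and 94.1 in shM3_WT, 124 and 121 in shM3, and 51.9 and 47.7 in B5 (1.55, SE 0.07, adjusted p = 6.01e-05 against B5). ANGPTL4, an inhibitor of lipoprotein lipase, was at 21.6 and 19.7 FPKM in shM3_CD, 10.04 and 9.29 in shM3_WT, 12.2 and 11.3 in shM3, and 5.6995 and 5.11 in B5 (1.76, SE 0.10, adjusted p = 0.000152), and PFKFB3, a relative of PFKFB4, at 36.7 and 35.98 FPKM in shM3_CD, 25.8 and 25.5 in shM3_WT, 31.3 and 34.8 in shM3, and 14.5 and 15.2 in B5 (1.24, SE 0.08, adjusted p = 0.000201). For these 3 genes too shM3_CD was the highest group without overlap. The core letters ACGTG of the hypoxia response element were found in 16 of the 22 members that rose and have a window (72.7%), in 23 of all 35 (65.7%) and in 24.9% of all symbols. DDIT4, an inhibitor of mTORC1 signalling listed with the ATF4 genes, was at 143 and 143 FPKM in shM3_CD, 49.6 and 49.98 in shM3_WT, 76.3 and 73.6 in shM3, and 71.5 and 76.2 in B5, highest in shM3_CD (0.94, SE 0.07, adjusted p = 0.000266 against B5). Over the 30 genes of that list 5 rose and 6 fell, 36.7% in all against 29.9% of all genes, and fewer passed with some single libraries left out. Of 7 metallothionein genes 4 rose and none fell, 57.1% in all against 29.9% of all genes. With TMM factors or median scaling 3 rose. MT2A, a metal-binding protein, was at 3208 and 3127 FPKM in shM3_CD, against 1345 and 903 in B5 (1.52, SE 0.17, adjusted p = 0.00126), with B5 values that differed from each other. Reads of the MT1 genes may be split among close copies.

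Lists of matrix, receptor and growth factor binding genes held more members lower than higher. The share passing was 61.1% for matrix and integrins and 61.5% for proteases, plasminogen genes and crosslinkers. It was 72.2% for receptor tyrosine kinases, 77.8% for IGF-binding proteins and 66.7% for S100 and annexin genes, against 29.9% of all genes. Of 36 genes of extracellular matrix and integrins 17 fell and 5 rose, or 15 and 3 without shM3_CD replicate 2. COL6A1, a chain of the microfibrillar collagen VI, was listed at 38.9 and 39.1 FPKM in shM3_CD, 47.5 and 47.8 in shM3_WT, 40.3 and 44.7 in shM3, and 121 and 151 in B5. The 6 knockdown-derived libraries lay together, 3.496-fold below B5 for shM3_CD (-1.77, SE 0.11, adjusted p = 0.000188), with a 95% interval of -0.38 to 0.14 against shM3. Of 26 matrix proteases, plasminogen genes and crosslinkers 7 rose and 9 fell, or 4 rose without either shM3_CD library. TIMP3, an inhibitor of metalloproteases held in the matrix, was at 79.3 and 78.7 FPKM in shM3_CD, 90.7 and 86.4 in shM3_WT, 126 and 123 in shM3, and 339 and 329 in B5 (-2.06, SE 0.07, adjusted p = 1.07e-05 against B5). MMP1, the interstitial collagenase, was at 102 and 102 FPKM in shM3_CD, 414 and 425 in shM3_WT, 56.9 and 52.4 in shM3, and 44.5 and 44.01 in B5. It rose in shM3_CD (1.19, SE 0.07, adjusted p = 0.000154) and stood well below shM3_WT (-2.03, SE 0.07, adjusted p = 5.74e-05). TIMP2, another inhibitor, had unequal B5 libraries (25.4 and 25.2 FPKM in shM3_CD, against 79.2 and 179 in B5), and its call was lost without B5 replicate 2 (adjusted p = 0.0672) and without shM3_CD replicate 1 (0.0604) or 2 (0.0626). Of 18 receptor tyrosine kinases and NGFR 1 rose and 12 fell, and without either shM3_CD library 8 fell. EPHA2, an ephrin receptor, was at 58.4 and 55.8 FPKM in shM3_CD, 148 and 154 in shM3_WT, 61.7 and 65.1 in shM3, and 188 and 219 in B5, in shM3_CD near the level of shM3 and below shM3_WT (-1.81, SE 0.09, adjusted p = 7.49e-05 against B5, -1.39, SE 0.09, adjusted p = 0.000393 against shM3_WT). EGFR was at 28.3 and 28.5 FPKM in shM3_CD, 37.2 and 34.7 in shM3_WT, 24.2 and 24.4 in shM3, and 53.4 and 51.99 in B5 (-0.87, SE 0.07, adjusted p = 0.000427 against B5). Of 9 genes of IGF-binding proteins and IGF receptors 7 fell and none rose, or 4 without shM3_CD replicate 2. IGFBP6, which binds IGF2, was at 185 and 184 FPKM in shM3_CD, 43.5 and 47.6 in shM3_WT, 385 and 392 in shM3, and 423 and 459 in B5. The lowest group was shM3_WT, and shM3_CD lay between it and the other groups (-1.25, SE 0.08, adjusted p = 0.000168 against B5). IGFBP4 was at 793 and 759 FPKM in shM3_CD, 1012 and 998 in shM3_WT, 217 and 225 in shM3, and 1070.2 and 1042 in B5, in both add-back groups nearer to B5 than to shM3 (-0.44, SE 0.07, adjusted p = 0.00363) and far above shM3 (1.81, SE 0.07, adjusted p = 4.29e-05). Among 12 S100 and annexin genes 6 fell and 2 rose, or 4 fell and none rose without either shM3_CD library. S100A4, a calcium-binding protein linked to cell motility, was at 491 and 528 FPKM in shM3_CD, against 1136 and 993 in B5 (-1.06, SE 0.10, adjusted p = 0.000622).

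**Figure D4:**
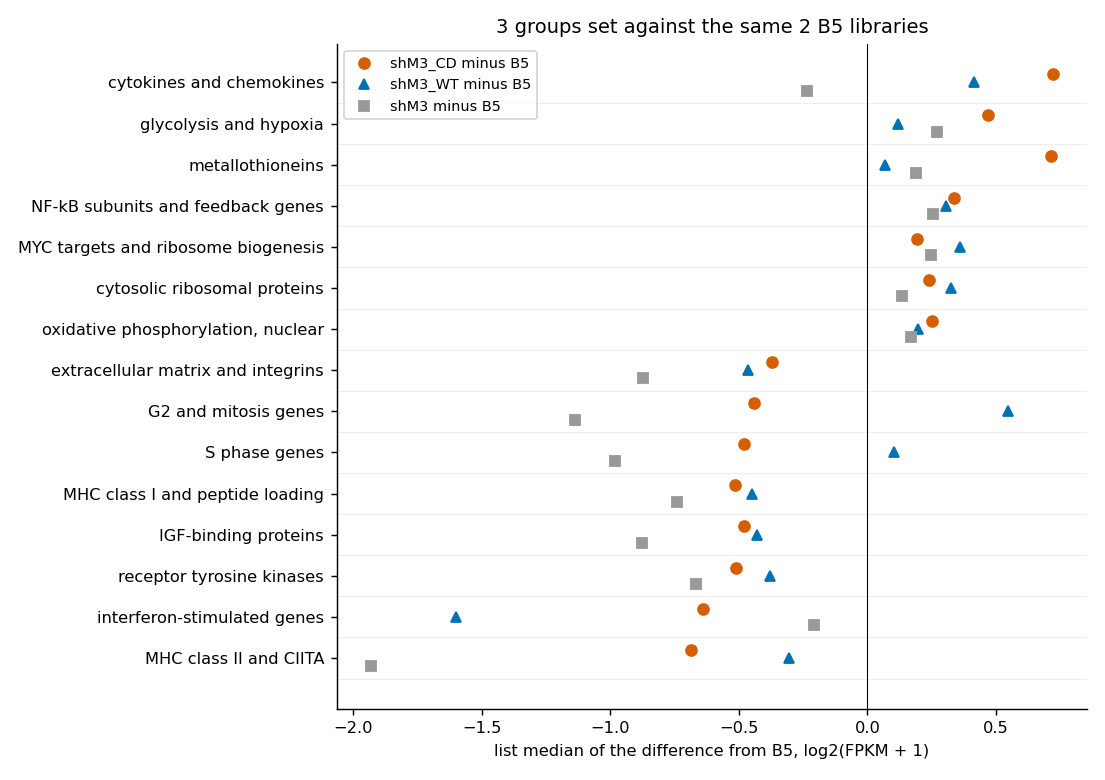
List medians of the difference from B5 for shM3_CD (circles), shM3_WT (triangles) and shM3 (squares), which share the 2 B5 libraries. For G2 and mitosis the 3 medians are -0.44, 0.55 and -1.14, and for interferon-stimulated genes -0.64, -1.60 and -0.21.

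Lists of transcription, translation, oxidative phosphorylation and histone genes had 16.7% to 41.7% of members past the threshold, against 29.9% of all genes. In each but the list of BET proteins more members rose than fell, while over all genes 14.8% rose and 15.2% fell. Of 18 genes of BET proteins and elongation factors, 1 rose and 2 fell. BRD2, a bromodomain reader of acetylated histones, was at 47.03 and 50.4 FPKM in shM3_CD, against 66.7 and 69.4 in B5 (-0.47, SE 0.07, adjusted p = 0.00356), and AFF4, a scaffold of the super elongation complex, at 19.2 and 19.96 FPKM in shM3_CD, against 28.3 and 33.7 in B5 (-0.63, SE 0.10, adjusted p = 0.00496). Of 29 genes of RNA polymerase II and its general factors 6 rose, or 1 without either shM3_CD library. POLR2H, a shared polymerase subunit, was at 42.6 and 41.5 FPKM in shM3_CD, against 24.6 and 25.2 in B5 (0.73, SE 0.11, adjusted p = 0.00319). Among 78 cytosolic ribosomal protein genes 19 rose and 3 fell. This count depended on single libraries, with 35 higher and 3 lower without B5 replicate 1, 8 and 4 without B5 replicate 2, 5 and 3 without shM3_CD replicate 1, and 3 and 3 without shM3_CD replicate 2. RPS24, a small subunit protein, was one that fell, with 282 and 271 FPKM in shM3_CD, 778 and 826 in shM3_WT, 139 and 137 in shM3, and 671 and 499 in B5 (-1.06, SE 0.13, adjusted p = 0.00173 against B5, -1.53, SE 0.13, adjusted p = 0.000865 against shM3_WT). Of 46 nuclear genes of oxidative phosphorylation 13 rose, against 20 without B5 replicate 1, 7 without B5 replicate 2 and 4 without either shM3_CD library. Of 39 MYC targets and ribosome biogenesis genes 13 rose and 2 fell. ODC1, the first enzyme of polyamine synthesis, was at 88.4 and 83.7 FPKM in shM3_CD, 175 and 177 in shM3_WT, 86.9 and 83.6 in shM3, and 51.8 and 44.3 in B5, above B5 and below shM3_WT (0.83, SE 0.09, adjusted p = 0.00102 and -1.03, SE 0.09, adjusted p = 0.000894). Of 24 clustered histone genes 8 rose and 2 fell. H2AC18 was at 13.2 and 13.5 FPKM in shM3_CD, 7.601 and 7.64 in shM3_WT, 31.8 and 29.2 in shM3, and 7.95 and 6.37 in B5, above B5 (0.82, SE 0.11, adjusted p = 0.00264) and below shM3 (-1.13, SE 0.11, adjusted p = 0.0019). Histone counts were lower without B5 replicate 1 (5 and 1), shM3_CD replicate 1 (3 and 1) or shM3_CD replicate 2 (4 and 1).

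The remaining lists held changes in both directions, with 17.4% (p53 targets) to 68.4% (EMT factors and cadherins) of members passing, against 29.9% of all genes. Of 27 AP-1 and immediate early genes 3 rose and 9 fell. DUSP1, a phosphatase of MAP kinases, was listed at 53.2 and 49.7 FPKM in shM3_CD, 21.4 and 19.1 in shM3_WT, 77.4 and 72.2 in shM3, and 16.3 and 17.5 in B5, high in shM3_CD and in shM3 (1.55, SE 0.09, adjusted p = 0.000152 against B5, 1.31, SE 0.09, adjusted p = 0.000487 against shM3_WT). EGR1, an early growth response factor, was at 2.47 and 2.07 FPKM in shM3_CD, 2.89 and 3.36 in shM3_WT, 8.08 and 9.05 in shM3, and 6.77 and 6.3003 in B5, low in both add-back groups (-1.205, SE 0.12, adjusted p = 0.000882 against B5). Of 34 genes of cholesterol and fatty acid synthesis 8 rose and 6 fell against B5, or 6 and 3 without shM3_CD replicate 1 and 4 and 4 without replicate 2. In this list 18 were higher and 1 lower than in shM3_WT, or 14 and 1 with TMM factors or median scaling. Fewer were higher without any 1 library of these 2 groups. SCD, which makes monounsaturated fatty acids, was at 50.9 and 49.8 FPKM in shM3_CD, 20.7 and 18.7 in shM3_WT, 56.9 and 58.1 in shM3, and 82.3 and 86.3 in B5, lower than B5 in both add-back groups and lowest in shM3_WT (-0.73, SE 0.08, adjusted p = 0.000963 for shM3_CD). Of 32 genes of the NRF2 response, glutathione and iron handling 6 rose and 9 fell, or 3 and 5 without shM3_CD replicate 1. AKR1C3, a steroid-reducing enzyme, was at 28.2 and 24.1 FPKM in shM3_CD, 13.5 and 15.8 in shM3_WT, 28.5 and 27.5 in shM3, and 89.4 and 81.99 in B5 (-1.68, SE 0.11, adjusted p = 0.000203), and FTL, the light chain of ferritin, at 737 and 694 FPKM in shM3_CD, 1187 and 1118 in shM3_WT, 1341 and 1307 in shM3, and 1896 and 1554 in B5 (-1.26, SE 0.11, adjusted p = 0.000429), lowest in shM3_CD. Of 14 keratin genes 7 rose and 2 fell, or 4 and 1 without shM3_CD replicate 1. KRT7, a simple epithelial keratin, was at 258 and 307 FPKM in shM3_CD, against 114 and 119 in B5 (1.26, SE 0.12, adjusted p = 0.000781) and KRT18, a partner of KRT8, at 127 and 119.99 FPKM in shM3_CD, against 218 and 187 in B5 (-0.71, SE 0.09, adjusted p = 0.00167). Of 12 nuclear retained and small structured RNAs 4 rose and 3 fell, or 3 and 1 without B5 replicate 2 or shM3_CD replicate 1. MALAT1, a long nuclear RNA, was at 3.88 and 5.21 FPKM in shM3_CD, 3.47 and 3.002 in shM3_WT, 14.2 and 15.8 in shM3, and 10.1 and 20.5 in B5, with overlap of neither add-back group with B5 (-1.49, SE 0.29, adjusted p = 0.00952), and its adjusted p was 0.0553 without shM3_CD replicate 1. Such RNAs are sensitive to how poly(A) and ribosomal RNA were handled, and of the 2 preparations in the protocols it is not stated which one these libraries had. Of 23 p53 targets 1 rose and 3 fell, a share under that of all genes. Of 19 EMT factors and cadherins 6 rose and 7 fell, or 4 and 4 without shM3_CD replicate 2 and 3 and 6 without B5 replicate 2. Of 24 targets of YAP and TEAD factors 5 rose and 8 fell, or 3 and 4 without shM3_CD replicate 1 and 3 and 2 without replicate 2. Of 25 BCL2 family and apoptosis genes 6 rose and 3 fell, 36% in all, near the 29.9% of all genes. Of 12 immune checkpoint ligands 1 rose and 4 fell, or 0 and 2 without B5 replicate 1 and 0 and 3 without either shM3_CD library.

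For some genes shM3_CD stood to 1 side of all the other groups. Among genes past the threshold with no overlap against B5 and a mean of at least 5 FPKM (3288 genes), 100 were higher and 42 lower in shM3_CD than in each of shM3_WT, shM3 and B5, comparisons that share the shM3_CD libraries. The balance was more even with TMM factors, at 76 higher and 52 lower, and with median scaling, at 73 higher and 58 lower. Genes named from these were picked by the same differences, so their p-values below are no further support. Without either shM3_CD library 31 or 32 were higher and 14 lower, without either shM3 library 36 or 39 and 17 or 20, and without either shM3_WT library 60 or 59 and 26. CACNB3, a calcium channel subunit, was listed at 9.35 and 9.0999 FPKM in shM3_CD, 2.32 and 1.897 in shM3_WT, 2.67 and 3.43 in shM3, and 3.09 and 2.72 in B5. The 6 other libraries formed 1 low band, and the difference from B5 was 1.39, SE 0.14, adjusted p = 0.000807 and from shM3_WT 1.72, SE 0.14, adjusted p = 0.000778. AKR1B1, an aldose reductase, was at 291 and 257 FPKM in shM3_CD, 133 and 145 in shM3_WT, 123 and 128 in shM3, and 75.2 and 72.6 in B5, lowest in B5 and highest in shM3_CD (1.87, SE 0.09, adjusted p = 6.01e-05 against B5, 1.12, SE 0.09, adjusted p = 0.000894 against shM3). AC004922.1 (17.6 and 16.4 FPKM in shM3_CD, 0.1103 and 0.522 in shM3_WT, 3.53 and 6.36 in shM3, and 2.24 and 0.343 in B5) and AL355916.1 (11.2 and 16.6 FPKM in shM3_CD, 3.89 and 3.31 in shM3_WT, 4.64 and 4.07 in shM3, and 2.25 and 1.89 in B5) are transcripts with no gene name in the annotation. Both were highest in shM3_CD, and the B5 values of AC004922.1 differed several-fold from each other. On the low side, MT-ATP6, a subunit of ATP synthase encoded in the mitochondrial genome, was at 673 and 732 FPKM in shM3_CD, 1997 and 2441 in shM3_WT, 3109 and 2869.98 in shM3, and 3226 and 2432 in B5. Its shM3_CD values were clear of the other 6 (-1.99, SE 0.16, adjusted p = 0.000335 against B5, -2.09, SE 0.16, adjusted p = 0.000742 against shM3). MT-ATP6 overlaps MT-ATP8 and has a near copy in the nuclear genome, so the assignment of its reads is uncertain. MT-RNR2, the large mitochondrial ribosomal RNA, moved the other way against B5, with 3289.8 and 3262 FPKM in shM3_CD, 1619 and 1546 in shM3_WT, 3483 and 3322 in shM3, and 1534 and 1333 in B5 (1.196, SE 0.09, adjusted p = 0.000288). Of the 15 mitochondrial transcripts 4 rose and 1 fell, or 9 and 1 without B5 replicate 1. The counts were 1 and 1 without either shM3_CD library or either shM3 library. FST, which binds activin, was at 8.27 and 7.25 FPKM in shM3_CD, 19.6 and 17.3 in shM3_WT, 17.4 and 19.3 in shM3, and 35.1 and 29.95 in B5 (-1.93, SE 0.12, adjusted p = 0.000181 against B5, -1.15, SE 0.12, adjusted p = 0.00156 against shM3_WT). CXCR4, the receptor of CXCL12, was at 12.7 and 13.2 FPKM in shM3_CD, 26.5 and 28.1 in shM3_WT, 28.7 and 31.3 in shM3, and 24.3 and 23.3 in B5 (-0.83, SE 0.08, adjusted p = 0.000806 against B5). MCM8, a helicase of DNA repair, was at 3.59 and 2.83 FPKM in shM3_CD, 7.15 and 10.6 in shM3_WT, 6.22 and 7.1996 in shM3, and 9.03 and 8.32 in B5 (-1.21, SE 0.19, adjusted p = 0.00396). In all 3 the shM3_CD values were below those of the 6 other libraries.

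**Figure D5:**
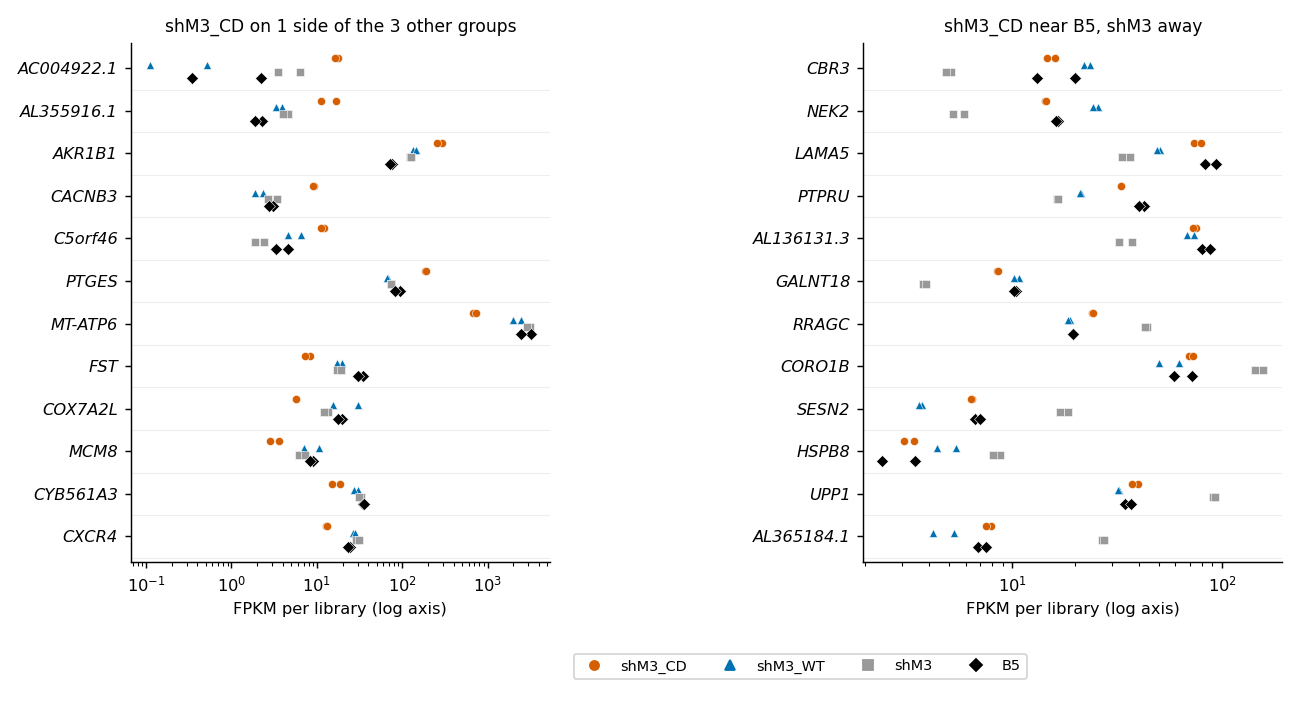
FPKM of every library on a log axis, 1 point per library. On the left are 12 genes for which shM3_CD lies to 1 side of the 3 other groups, such as PTGES (187 and 190 FPKM in shM3_CD), and on the right 12 genes changed in shM3 for which shM3_CD lies near B5, such as NEK2 (14.3 and 14.5 FPKM in shM3_CD, 16.5 and 16.2 in B5).

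Other genes that differed between shM3 and B5 were close to B5 in shM3_CD. The rule took genes that passed in shM3 against B5, with a mean over B5 and shM3 of at least 5 FPKM. The 95% interval of shM3_CD minus B5 had to lie within -0.5 and 0.5. This held for 460 genes lower and 587 genes higher in shM3 than in B5, in comparisons that share the B5 libraries. No difference between shM3_CD and shM3 was asked for, so some of these genes may lie as near to shM3. How many of all genes meet the interval was not counted. The genes named below had the largest differences between shM3 and B5 of those that met the rule. Their nearness to B5 and distance from shM3 follow from that choice, and the tests against shM3 are no further support. Without 1 library of shM3_CD, shM3 or B5 these counts were 254 to 283 and 265 to 356. NEK2, a kinase of centrosome separation, was listed at 14.3 and 14.5 FPKM in shM3_CD, 25.6 and 24.4 in shM3_WT, 5.21 and 5.903 in shM3, and 16.5 and 16.2 in B5. Its shM3_CD values were just under those of B5 (95% interval of the difference -0.39 to 0.03) and above those of shM3 (1.23, SE 0.09, adjusted p = 0.000652). LAMA5, a laminin chain, was at 73.7 and 79.3 FPKM in shM3_CD, 50.4 and 49.2 in shM3_WT, 33.3 and 36.3 in shM3, and 82.6 and 93.2 in B5, nearer to B5 in shM3_CD than in shM3_WT (difference from B5 -0.20, SE 0.09, adjusted p = 0.14 in shM3_CD and -0.81, SE 0.09, adjusted p = 0.00109 in shM3_WT, and 0.61, SE 0.09, adjusted p = 0.00417 between the 2 forms). CBR3, a carbonyl reductase, was at 14.6 and 15.9 FPKM in shM3_CD, 21.9 and 23.4 in shM3_WT, 5.097 and 4.83 in shM3, and 20.02 and 13.1 in B5, within the range of B5 (-0.08, SE 0.18, adjusted p = 0.755). Among those higher in shM3, SESN2, a leucine sensor of mTORC1 signalling, was at 6.46 and 6.39 FPKM in shM3_CD, 3.72 and 3.62 in shM3_WT, 18.5 and 16.9 in shM3, and 6.62 and 7.05 in B5. Its 95% interval of shM3_CD minus B5 was -0.30 to 0.15, and it was lower than shM3 by -1.33, SE 0.10, adjusted p = 0.000652. UPP1, which splits uridine, was at 39.6 and 37.3 FPKM in shM3_CD, 32.4 and 32.1 in shM3_WT, 90.2 and 92.1 in shM3, and 34.6 and 36.7 in B5 (-0.06 to 0.28 for the interval against B5). HSPB8, a small heat shock protein, was at 3.3996 and 3.05 FPKM in shM3_CD, 5.37 and 4.38 in shM3_WT, 8.71 and 8.07 in shM3, and 3.45 and 2.398 in B5 (-0.26 to 0.50). In these 3 genes the shM3 libraries stood clear above both B5 and shM3_CD. PTPRU and RRAGC met the interval rule and yet passed the threshold against B5, with differences of -0.32, SE 0.07, adjusted p = 0.0161 and 0.29, SE 0.07, adjusted p = 0.0214, calls that some fits with a library left out did not make.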

How the data were processed

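RNA-seq of 8 MDA-MB-231 libraries (4 groups of 2) was read from 1 table of FPKM that the authors deposited. The tools CASAVA 1.4, HISAT2 2.1.0 and Cufflinks 2.2.1 and the genome hg38 are named per the submitters' processing notes, with no options, annotation or use of strand given in the sources used here. The table holds no counts, so the test planned for FPKM was used, and reads of a gene and an antisense partner may not be separated. FPKM were taken as log2(FPKM + 1) after a filter of 1 FPKM in at least 2 libraries, and fitted with limma 3.58.1 in R 4.3.3 (lmFit, contrasts, eBayes with trend, 4 residual degrees of freedom), adjusted over 14638 genes at 0.05. The code was tested on simulated data. An exact permutation test of 2 against 2 libraries was not used.

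Named genes were the writer complex, the 15 highest rises and deepest falls with no overlap and a mean of at least 5 FPKM, up to 6 genes per direction apart from every group or near B5, and up to 4 members of each of 41 lists by adjusted p. Some genes that these rules named are not reported here. The genes and lists were chosen with earlier results of these data known. Of 1114 list genes 975 were tested and 461 passed. Alternatives were a replicate block, the 2 groups alone, pseudocounts of 0.1 and 5, no filter or 5 FPKM, unweighted TMM factors (trims of 30% and 5%), median scaling, a 2-fold limit and each library left out. Locations are from GENCODE (GRCh38), promoters from RefSeq (GRCh38.p14). Python 3.11.15, pandas 2.3.3 and matplotlib 3.10.9 made the summaries.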

Additional observations from a re-analysis of the deposited data

Results flagged for a closer look

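The rule took named genes for which shM3_CD and shM3_WT passed the threshold on opposite sides of B5. The direct test between the 2 add-back forms had to pass as well, and 8 genes met the rule. As that test was part of the rule, its p-values below are no further support. The value given for each is shM3_CD minus shM3_WT in log2(FPKM + 1). Higher in shM3_CD than in B5 and lower in shM3_WT than in B5 were PTGES (1.48, SE 0.08, adjusted p = 0.000217), DDIT4 (1.501, SE 0.07, adjusted p = 0.000123) and H2BC5, a histone H2B gene (1.27, SE 0.10, adjusted p = 0.000644). H2BC5 was listed at 33.02 and 37.3 FPKM in shM3_CD, 13.3 and 14.6 in shM3_WT, 67.2 and 63.95 in shM3, and 22.1 and 19.9 in B5. Lower in shM3_CD and higher in shM3_WT were TPX2, a spindle assembly factor (-1.200, SE 0.07, adjusted p = 0.000312), ADAMTS1, a secreted protease (-1.83, SE 0.08, adjusted p = 0.000133), CD44 (-1.81, SE 0.17, adjusted p = 0.00116), IGFBP1 (-1.15, SE 0.09, adjusted p = 0.000708) and RPS24 (-1.53, SE 0.13, adjusted p = 0.000865). TPX2 was at 56.2 and 60.7 FPKM in shM3_CD, 137 and 134 in shM3_WT, 33.8 and 33.7 in shM3, and 96.9 and 95.3 in B5, and ADAMTS1 at 6.05 and 5.596 FPKM in shM3_CD, 23.3 and 23.2 in shM3_WT, 9.72 and 9.39 in shM3, and 14.2 and 14.8 in B5. IGFBP1 was at 16.1 and 14.96 FPKM in shM3_CD, 37.5 and 33.6 in shM3_WT, 10.1 and 9.64 in shM3, and 23.1 and 24.5 in B5, and CD44 at 60.98 and 44.6 FPKM in shM3_CD, 213 and 162 in shM3_WT, 25.7 and 27.8 in shM3, and 125 and 121 in B5. With median scaling shM3_WT no longer passed below B5 for PTGES (-0.26, SE 0.09, adjusted p = 0.0588). The cause of these differences was not tested.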

How the results depend on the processing

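In shM3_CD against B5, 16 alternative settings were run for genes. No named gene changed direction in any of them where it passed in the main fit or in that setting. Changes of direction among named genes that passed in neither were not counted. Of 184 named genes that passed, 151 did so in all 16, 5 in every setting that tested them and 28 were lost in some. Leaving out 1 library gave 2383 to 4016 genes for shM3_CD against B5, 1781 to 4003 for shM3_CD against shM3_WT, 500 to 1792 for shM3_CD against shM3, 2642 to 3942 for shM3_WT against B5, 3654 to 5232 for shM3 against B5 and 298 to 441 list members. A group left with 1 library is assumed to vary like the others. A 2-fold limit left 761, 450, 267, 774, 1134 and 121 in the same order. The other settings kept these 6 totals within 1.5 times, but not each direction or list: ribosomal protein genes that rose numbered 19, against 9 with the 2 groups alone and 5 with no filter, polymerase II genes 6, against 1 with the 2 groups alone, mitochondrial transcripts 4, against 1 in both settings, and histone genes 8, against 4 in both. Under TMM factors and median scaling the genes higher and lower were 1654 and 1864, and 1502 and 2012, for shM3_CD against shM3_WT, and 2327 and 2162, and 2613 and 2013, for shM3_WT against B5, against 1727 and 2659 as deposited. Replicate numbers did not pair the libraries (correlations of deviations from -0.03 to 0.04), and the replicate block gave 4110 genes for shM3_CD against B5. Of the calls higher and lower in shM3_CD, TMM factors gave 2187 and 2190, and median scaling 2198 and 2175. Depth is unknown, and 2 libraries a group limit the precision of each value.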
